A study of Mus musculus with 2 samples.

Results

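Mir137 and Mir153 are neuron-associated miRNA genes, each with a hairpin of its own, and they were described here as 2 of the 1973 miRNA genes measured in the embryonic mouse forebrain. They were taken by name and not by a cut-off on a measured value, but earlier results of these data were known when they were chosen. Small RNA was sequenced from forebrain of the C57BL/6 substrain B6NCrl at embryonic day 14.5, in 2 libraries numbered as biological replicates 1 and 2. No genotype, treatment or second tissue is named, so the libraries form 1 group with no contrast. Each is labelled as a single forebrain with its own collection day, yet also as pooled sex and with a shared donor identifier, so the spread between them may be partly technical. The libraries held 18598385 and 20638071 reads, of which 7080317 and 7946585 were counted on the strand of a miRNA gene, and 42.7% ± 0.822 of the reads (SD, n = 2) matched several places and entered no gene count.

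A miRNA is cut from a hairpin in a longer primary transcript and guides Argonaute proteins to messenger RNAs through its seed, bases 2 to 8 of the mature strand. miR-137 is enriched in the brain, is known for its part in the differentiation of neural stem cells and in dendrite growth, and targets, among others, the Polycomb gene Ezh2. miR-153 is a brain-enriched miRNA known for targeting messenger RNAs of synaptic and vesicle proteins, and it represses alpha-synuclein together with miR-7. At this embryonic stage the cortex holds dividing progenitors beside newly made neurons.

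The mature sequences from both arms of each hairpin are shown because they set which reads can be assigned to these genes and which targets they can pair with. They are given 5′ to 3′ from RefSeq on GRCm38.p6, the assembly also called mm10, with the seed in capitals.
miR-137-5p: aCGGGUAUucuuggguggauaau
miR-137-3p: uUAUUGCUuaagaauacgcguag
miR-153-5p: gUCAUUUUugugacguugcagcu
miR-153-3p: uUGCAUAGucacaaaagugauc
None of the 4 seeds occurs in a mature miRNA of another gene in the RefSeq table, so these genes form no seed family with each other or with any other gene listed there. A seed found in 1 gene is common, however, at 68.0% of the 1738 mature sequences. The deposited counts are per hairpin, so the reads of the 5′ and 3′ arms cannot be told apart.

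The whole hairpins show how much sequence separates the arms. The mature strands are in capitals and the flanks and loop in lower case.
Mir137: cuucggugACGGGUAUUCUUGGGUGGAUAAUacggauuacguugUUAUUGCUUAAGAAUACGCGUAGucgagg
Mir153: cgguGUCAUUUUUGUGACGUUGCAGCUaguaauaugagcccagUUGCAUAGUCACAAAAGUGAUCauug
The longest stretch that the Mir137 hairpin shared with any of the other miRNA hairpins in GENCODE M21, on either strand, was 11 nt, with Mir383. For Mir153 it was 10 nt, with Gm23785. All 4 mature sequences were also searched in the 141767 annotated transcripts. Those of miR-137 occurred in Mir137 and its host transcript alone, and those of miR-153 in Mir153 alone. A full-length read of either miRNA therefore matched 1 annotated locus, while places outside annotated transcripts were not searched.

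Mir137 (ENSMUSG00000065569.1) lies at chr3:118433857-118433929 on the plus strand of mm10, inside an exon of the non-coding gene Gm26871. Of the 6 transcript models of Gm26871, 2 hold the hairpin in an exon. Mir153 (ENSMUSG00000065538.1) lies at chr12:117250817-117250885 on the plus strand, in intron 19 of Ptprn2, 2116 nt after the exon before it and 2717 nt ahead of the next. Ptprn2 encodes phogrin, a membrane protein of dense-core secretory vesicles in neurons and endocrine cells. The antisense gene Gm5441 also spans Mir153 with an intron of its own, on the other strand.

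**Figure D1:**
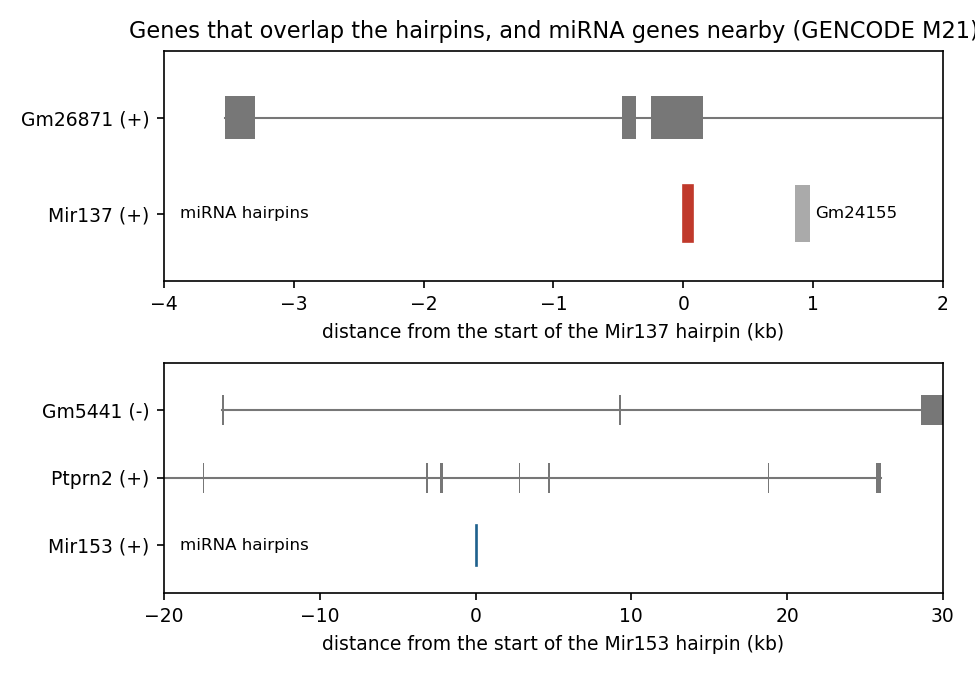
Genes that overlap the Mir137 hairpin (upper panel) and the Mir153 hairpin (lower panel), drawn as exons (boxes) and introns (lines) against the distance in kb from the hairpin start, with + and - for the strand. Mir137 sits within an exon of Gm26871, with the miRNA gene model Gm24155 791 nt downstream, and Mir153 sits in an intron of Ptprn2. The outline of the hairpins makes Mir153 look wider than its 69 nt.

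Sharing a strand with a host gene was common among the miRNA genes counted here. Of the 399 genes detected, meaning at 10 or more counts in both libraries, 47.6% lie in an intron and 22.6% in an exon of a host gene on their own strand. Few miRNA genes lie near the members. Mir153 has no other annotated miRNA gene within 1 Mb. Mir137 has 2, Gm24155, 791 nt downstream, with 2 and 1 counts in replicates 1 and 2, and Gm24811 with no count in either.

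Mir137 had 56322 counts in replicate 1 and 57802 in replicate 2. Scaled to a library total of 1000000 miRNA gene counts (CPM), these were 7955 CPM, with a 95% exact Poisson interval of 7889 to 8021, and 7274 CPM, with an interval of 7215 to 7333. The mean was 7614 ± 481 CPM (SD, n = 2), so replicate 1 was the higher and the counting intervals of the libraries did not overlap. These intervals leave out everything but counting error, and without molecular identifiers PCR copies count as separate reads.

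Mir153 had 12550 counts in replicate 1 and 12125 in replicate 2. Its levels were 1773 CPM (exact Poisson interval 1742 to 1804) and 1526 CPM (1499 to 1553), with a mean of 1649 ± 174 CPM (SD, n = 2). Again replicate 1 was the higher, beyond counting error. Both genes together made up 0.973% of the miRNA counts in replicate 1 and 0.880% in replicate 2. In whole tissue, more cells with a miRNA and more of it per cell cannot be told apart.

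Counts lay almost entirely on the strand of the hairpin. On the opposite strand Mir137 had 1 count in each library, or 0.00178% and 0.00173% of its counts on either strand. Mir153 had none in either library, which by a floor of 3 counts allows a share of up to 0.0239% in replicate 1 and 0.0247% in replicate 2, and by the 95% exact binomial interval 0.0294% and 0.0304%. Over all miRNA genes the opposite strand held 1.37% and 1.42%.

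In the order of mean CPM, Mir137 came at place 23 of the 399 detected genes, and at place 22 within each library. Mir153 came at place 71, and at place 72 within each library. Thus 94.2% of the detected genes had a lower mean than Mir137 and 82.2% a lower mean than Mir153. Among the 311 detected genes whose hairpin shares no stretch of 20 nt with another, the places were 21 and 59.

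Immediate neighbours in this order were often not separated by the spread between the libraries. Mir137 stood between Mir106b (7506 and 7903 CPM in replicates 1 and 2), of a paralogue of the miR-17-92 cluster, and Mirlet7d (6896 and 7846 CPM), of the let-7 family. Of the 3 genes above it (Mir130b, Mir15a and Mir106b) and the 3 below (Mirlet7d, Mir98 and Mir135b), only Mir98 had library values that did not overlap those of Mir137. In all, 5 detected genes overlapped Mir137, 19 lay wholly above it and 374 wholly below.

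Mir153 stood between Mir301 (2122 and 1506 CPM) and Mir1983 (1520 and 1629 CPM), and both overlapped it. Further off, Mir92-1 also overlapped, while Mir361, Mir125b-2 and Mir431 did not. In all, 6 detected genes overlapped Mir153, 69 lay wholly above it and 323 wholly below. By distance of log2(CPM + 1) over the 2 libraries, the genes most like Mir137 were Mir98 (0.14), Mir106b (0.15) and Mir130b (0.21), and those most like Mir153 were Mir92-1 (0.21), Mir431 (0.22) and Mir1983 (0.24). With 2 libraries this likeness is mostly one of level.

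**Figure D2:**
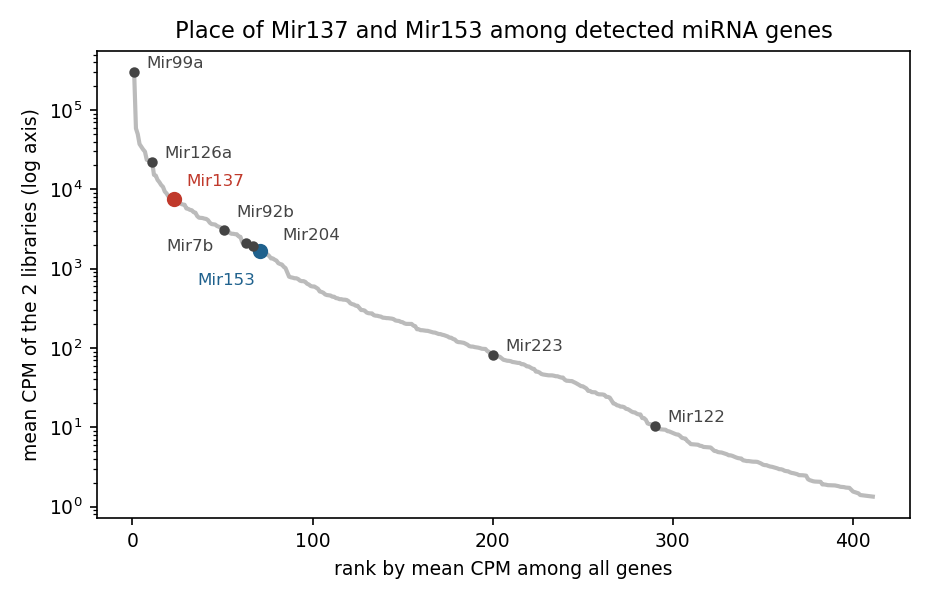
Mean CPM of the 2 libraries (log axis) against rank by mean CPM for the 399 detected miRNA genes (grey line), with Mir137 (red), Mir153 (blue) and 7 other genes marked for scale. Mir137 at 7614 CPM lies below the endothelial Mir126a, and Mir153 at 1649 CPM lies close to Mir7b and Mir204.

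Within each library Mir137 had more counts than Mir153. The ratio of Mir137 to Mir153 counts was 4.49 in replicate 1 (95% exact binomial interval 4.40 to 4.58) and 4.77 in replicate 2 (4.67 to 4.86), with a mean of 4.63 ± 0.198 (SD, n = 2). Depth cancels in this ratio. A difference between the sequences in how readily they enter a library would not cancel, and it was not measured. The ratio in replicate 2 was 1.06 times that in replicate 1, with a counting interval of 1.03 to 1.09 (two-sided Fisher's exact test on the 4 counts, p = 1.73e-05). That p-value is about these 2 libraries and takes account of no error but that of counting. Each read of a small RNA library is about 1 whole miRNA, so counts were not divided by length; per nucleotide of hairpin, 73 nt and 69 nt, the ratio was 4.37 ± 0.187.

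Both genes were slightly higher in replicate 1. With 1 library on each side, the intervals and p-values below take account of counting error alone, not of the spread between libraries. The log2 ratio of CPM, replicate 2 over replicate 1, was -0.13 for Mir137 (counting interval -0.15 to -0.11) and -0.22 for Mir153 (-0.25 to -0.18), or 1.09-fold and 1.16-fold higher in replicate 1. A two-sided Fisher's exact test set each gene against all other miRNA counts, Benjamini-Hochberg adjusted over the 737 genes with a count in either library (adjusted p = 8.99e-51 for Mir137 and 6.55e-31 for Mir153). A call also needed a 2-fold difference, which neither gene reached, and 1.49% of the 737 genes were called. With no minimum fold 26.3% passed, 125 genes higher in replicate 1 and 69 higher in replicate 2, and both members were among the 17% that passed toward replicate 1.

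Differences of this size were common between these libraries. The detected genes had a median log2 ratio of -0.09 and lay a median of 1.17-fold apart, and 70.9% of them were farther apart than Mir137 and 53.1% farther apart than Mir153. Among the 85 detected genes at a mean of 1000 CPM or more, the shares were 69.4% and 43.5%. Median-of-ratios factors moved the median of the detected genes from -0.09 to 0.02, and the split of passing genes to 88 and 99. With them the log2 ratio of Mir137 was -0.02 and no longer passed (Fisher's exact test, adjusted p = 0.0993), and that of Mir153 was -0.11 (adjusted p = 5.24e-08). TMM factors gave a split of 96 and 85 genes and log2 ratios of -0.05 and -0.14.

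**Figure D3:**
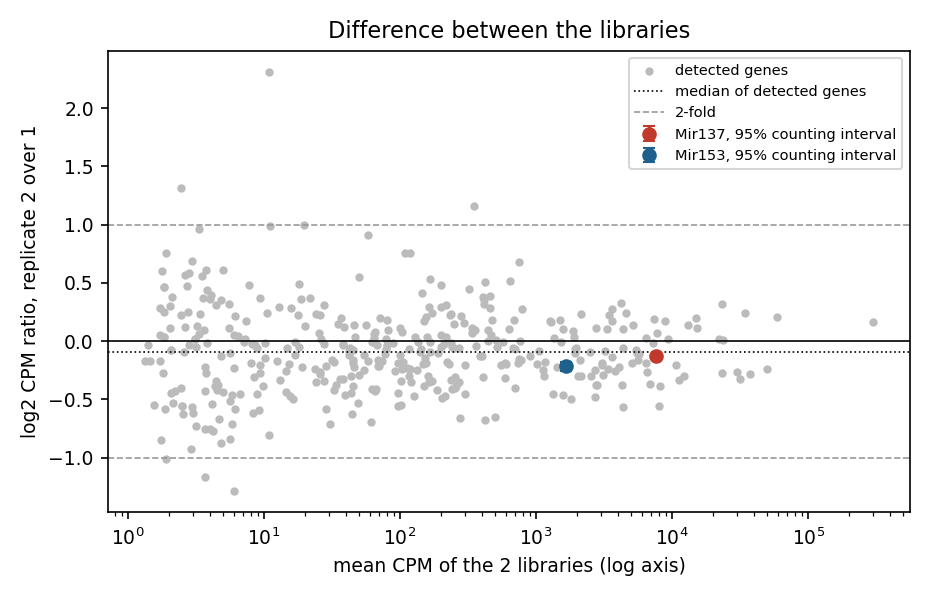
The log2 CPM ratio of replicate 2 over replicate 1 against mean CPM (log axis) for the 399 detected genes (grey points), with Mir137 and Mir153 in colour and bars for their 95% counting intervals, which are about as small as the points. Both members lie between the line of no difference and -0.22, near the median of the detected genes at -0.09 (dotted) and far inside the dashed 2-fold lines.

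Beside the other genes of a list of 18 neuron-associated miRNA genes, Mir137 was the highest and Mir153 the third. Mir137 held 50.8% of the list's CPM in replicate 1 and 48.4% in replicate 2, and Mir153 held 11.3% and 10.2%. The list as a whole had a median of 7.93 on the log2(CPM + 1) scale, against 0 over all 1973 genes and 6.36 over the detected genes, and 17 of its 18 genes were detected. Mir137 stood at 12.89 ± 0.09 and Mir153 at 10.68 ± 0.15 on that scale (SD, n = 2). The list was chosen with earlier results of these data known.

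The comparison within this list is limited by how reads were counted. Of the other 16 genes, 13 have a stretch of 20 nt or more in common with a hairpin elsewhere, and reads that match several loci were left out of their counts. Mir137 and Mir153 were taken as genes with a hairpin of their own. Their places and shares in the list are therefore not like for like with those 13 genes. The 5 genes with a hairpin of their own are Mir137, Mir153, Mir7b, Mir132 and Mir212. Mir7b, which gives a form of miR-7, had 2238 and 2002 CPM in replicates 1 and 2, above Mir153 in each library and with no overlap. Mir132, of a miRNA induced by neuronal activity, had 348 and 495 CPM, and Mir212 from the same cluster 19.1 and 20.9 CPM. Over the libraries' means, the CPM of Mir137 was thus 3.59 times that of Mir7b, 18.1 times that of Mir132 and 381 times that of Mir212. These are ratios of counts between different sequences, with the limit given above for the ratio of the members.

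Among genes that share sequence, Mir128-1 (582 and 930 CPM), Mir7-1 (795 and 715 CPM), Mir128-2 (531 and 758 CPM) and Mir138-1 (596 and 518 CPM) came next below Mir153. All 4 lay below it in both libraries. Mir138-2, Mir129-2 and Mir7-2 had means between 222 and 250 CPM, and Mir129-1 had one of 64.7 CPM. Mir218-2 had a mean of 26.0 CPM and Mir218-1, of a miRNA abundant in motor neurons, 10.2 CPM. The loci of miR-124, the classic miRNA of differentiated neurons, had between 3 and 18 counts in a library. Because these loci share their sequence, their counts do not set the level of miR-124 against that of miR-137.

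Between the libraries, 11 of the 18 list genes were higher in replicate 1 and 7 in replicate 2, with a median log2 ratio of -0.10, beside 248 of the 399 detected genes higher in replicate 1 and their median of -0.09. None of the list was called at 2-fold, against 1.49% of all genes tested. With no minimum fold, 6 passed Fisher's exact test toward replicate 1, namely Mir137, Mir153, Mir7b, Mir7-1, Mir7-2 and Mir138-1, where 17% of all genes tested did so. Toward replicate 2, 3 passed, namely Mir128-1, Mir128-2 and Mir132, with log2 ratios of 0.68, 0.51 and 0.51, and 26.3% of all genes tested passed in either direction. These shares are not like for like, because only 399 of the 737 genes tested were detected, against 17 of the 18 list genes. With testing limited to the 445 genes at 10 or more counts in either library, 139 passed toward replicate 1 and 74 toward replicate 2.

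**Figure D4:**
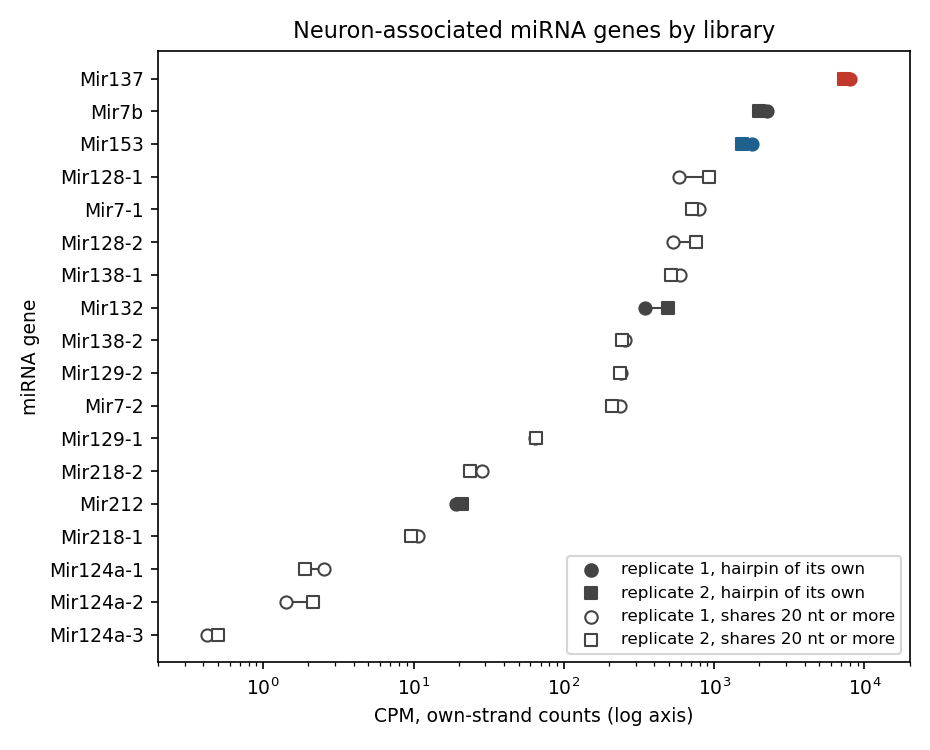
CPM (log axis) of the 18 neuron-associated miRNA genes in replicate 1 (circles) and replicate 2 (squares), with filled symbols for hairpins of their own and open symbols for those that share 20 nt or more. Mir137 (red) lies highest, and Mir153 (blue) lies just below Mir7b in both libraries.

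Progenitor-associated miRNAs and markers of other cells were present in the same libraries. Mir92b, a miRNA of neural progenitors, had 3407 and 2786 CPM, below Mir137 and above Mir153 in each library, and its mean was below that of Mir137 by a factor of 2.46. Mir9-3 had 634 and 556 CPM and Mir9-2 3.95 and 6.04 CPM, and both share sequence with other loci. The highest genes of the other marker lists ranged from the endothelial Mir126a at 22234 ± 185 CPM (SD, n = 2), above Mir137, to the hepatocyte Mir122 at 10.3 ± 0.0829 CPM. Between them came Mir449a of multiciliated cells (4268 CPM), Mir143 of smooth muscle (3612 CPM), the epithelial Mir203 (1294 CPM), the erythroid Mir451a (457 CPM), Mir10a of the Hox clusters (320 CPM), the myeloid Mir223 (81.0 CPM) and the muscle Mir206 (16.4 CPM). Some markers differed between the libraries by more than the members did. The epithelial list summed to 1616 and 2147 CPM in replicates 1 and 2, and its Mir429 had 218 and 486 CPM, while the erythroid Mir144 had 3.67 and 18.2 CPM. Conversely, the list of choroid plexus or ciliated cells summed to 8077 and 6668 CPM, and its Mir449c had 8.62 and 3.52 CPM. Mir429, Mir144 and Mir449c were called at 2-fold, and the part of such differences in those of Mir137 and Mir153 was not tested. Listed at 0 in both libraries were Mir145b, and Mir1a-1, Mir133a-1 and Mir133a-2, the last 3 of which share sequence with other loci, so that their counts set no level. The libraries come from whole tissue, so the share of Mir137 and Mir153 that came from neurons was not measured.

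The closest seeds to those of the members are shown next, because a miRNA with 1 seed base changed is the nearest to a family member that these genes have. The seed is again in capitals.
miR-448-3p: uUGCAUAUguaggaugucccau
miR-33-5p: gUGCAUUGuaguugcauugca
miR-155-5p: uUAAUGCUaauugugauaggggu
miR-101b-5p: uCGGUUAUcaugguaccgaugcu
miR-448-3p and miR-33-5p each differ from miR-153-3p by 1 seed base, miR-155-5p differs so from miR-137-3p, and miR-101b-5p from miR-137-5p. No mature miRNA came that close to miR-153-5p. Mir448, within an intron of the serotonin receptor gene Htr2c, had 181 and 221 CPM in replicates 1 and 2, and Mir33, in an intron of the sterol regulator gene Srebf2, had 40.8 and 59.8 CPM. Both lay below Mir153 in each library. Mir155, of activated immune cells, had 72.9 and 65.1 CPM, below Mir137. Mir101b, whose 5p seed is close to that of miR-137-5p, had 1185 and 1336 CPM, also below Mir137. All these levels are of whole hairpins, not of the arm that holds the seed. The other 3 genes with such a seed were nearly without counts, with 1 and 1 counts for Mir7027, 2 and 5 for Mir7067 and none for Mir6335.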

How the data were processed

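The authors deposited 1 table of whole-number read counts per miRNA gene for each library, on mm10 with GENCODE M4 as the deposited README files state. No aligner or counter is named in the sources used here. Each table has 3 count columns (either strand, strand of the gene, opposite strand) and 4 totals without a gene, and the columns summed to the same number of reads. Own-strand counts served throughout. The 4 totals were left out of library sizes; multi-mapping reads made up 42.7% ± 0.822, unmapped reads 16.8% ± 0.325 (SD, n = 2). Counts of loci with shared sequence leave such reads out.

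CPM is the count per 1000000 miRNA gene counts, and 1 count was worth 0.141 CPM in replicate 1 and 0.126 in replicate 2. Of 1973 IDs, 1894 matched GENCODE M21, on the same assembly, for names and positions. RefSeq sequences matched for both members. Fisher's exact test (scipy 1.17.1) compared the libraries, with a threshold of 0.05 and a pseudocount of 1 on log2 levels only. It was tested on simulated counts with counting error alone and changes far larger than those of the members. That simulation leaves out other differences between libraries. TMM factors came from edgeR 4.0.16 and median-of-ratios factors from DESeq2 1.42.0, and hairpins were folded with ViennaRNA 2.7.2. With 1 group, no test between conditions was possible.

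The genes named besides the members were the other neural list genes, 3 rank neighbours on each side, the 3 nearest by distance, genes with a seed changed by 1 base, miRNA genes within 1 Mb, and the highest gene of each marker list. The members and lists were chosen with earlier results of these data known. Mir383, Gm23785, Mir99a, Mir204, Mir144, Mir429, Mir449c and the marker genes listed at 0 were named after their values were seen.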

Additional observations from a re-analysis of the deposited data

How the results depend on the processing

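Of the alternatives, TMM factors, median-of-ratios factors and a total of uniquely mapped reads kept the levels of both members within 1 SD. For both sets of factors this was nearly fixed in advance. They lower 1 library about as much as they raise the other, so the mean hardly moves. Other changes of the denominator moved the levels most. Per 1000000 reads of the library, Mir137 stood at 2915 and Mir153 at 631, and with totals that leave out Mir99a they stood at 10889 and 2357 CPM. Per nucleotide of hairpin, the places in the order were 18 for Mir137 and 67 for Mir153 and their ratio was 4.37, and with counts on either strand Mir153 came at place 75. Restricting the tested genes to those with 10 or more counts in either library raised the calls at 2-fold from 11 to 17, since fewer genes were tested. The neuron-associated list had a median of 10.68 when reduced to hairpins of their own, which is the level of Mir153 itself. In that reduced list the members held 78.3% of the counts, against 60.3% in the whole list. Leaving out a replicate gave 7274 to 7955 CPM for Mir137, 1526 to 1773 CPM for Mir153 and a ratio of 4.49 to 4.77. Either library alone put Mir137 at place 22 and Mir153 at place 72, 1 place from the order of the means. Of the 71 values under alternatives, 59 stayed on their side of the threshold, within 1 SD, within 1 place for ranks or within 1.5 times for counts of genes, 11 moved farther and 1 call with no minimum fold was lost, that of Mir137 with median-of-ratios factors (Fisher's exact test, adjusted p = 0.0993); none changed direction. Not all of the 59 could have moved. With 2 libraries, the value of 1 always lies within 1 SD of their mean, for levels, ratios and shares alike. No paired analysis was possible because the libraries form 1 group. With 2 libraries the spread is a coarse estimate, and genes under 3 counts, at most 0.424 CPM here, cannot be told from 0.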

Other observations

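Both members are poor in G and C on the 3p arm. G and C made up 34.8% of miR-137-3p and 36.4% of miR-153-3p, against a median of 52.2% over the 1738 mature sequences, of which 4.78% and 6.44% were lower still. The 5p arms both stood at 43.5%. The predicted folds of the hairpins had a free energy per nucleotide near the median. Mir137 had a minimum free energy of -31.2 kcal/mol with 30 base pairs and Mir153 one of -30.8 kcal/mol with 27, or -0.427 and -0.446 per nucleotide against a median of -0.433 over the 399 detected hairpins. The share of nucleotides paired was above the median, at 82.2% and 78.3% against 72.1%.

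Of the 6 transcript models of its host Gm26871, 3 start between 65 and 109 nt after the first base of the 73 nt hairpin, at its 3′ end or just past it, and 2 contain the hairpin. These files hold no reads of the host, so transcription from these starts was not measured.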
